A study of Mus musculus with 4 samples.

Results

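Collagen chain genes were taken as every gene whose symbol reads Col, a type number, the letter a and a chain number (Col1a1, Col4a3 and so on). The rule found 44 of the 31053 genes in the count matrices of 4 single-cell RNA-seq libraries of mouse testis, and it used no measured value. Collagens are extracellular matrix proteins in which 3 chains wind into a triple helix, and chains of different genes often share one helix. The fibrillar types I, III and V give connective tissue its strength, type IV forms the network of basement membranes, and type VI forms beaded microfibrils next to them. In the testis, peritubular myoid cells and Sertoli cells lie on the 2 faces of the basement membrane around each seminiferous tubule, and the rete testis (RT) is the epithelial network into which the tubules open through the Sertoli valve (SV), a cuff of specialised Sertoli cells.

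The cells came from the part of the testis around the RT of C57BL/6 mice at postnatal day 14, with 2 control libraries and 2 libraries of conditional Sox17 knockouts (Sox17-cKO), each pooled from 3 pups. The labels give the controls as SF1Cre and the knockouts as SF1Cre:Sox17flox/flox, whereas the study's methods describe the controls as Sox17flox/flox littermates without Cre. SF1 (Nr5a1) drives the Cre in somatic cells of the gonad, and its use is not limited to the RT. The supernatant with interstitial cells was discarded during digestion, so interstitial cells are not sampled in full here. Values are given for control replicates 1 and 2 and then Sox17-cKO replicates 1 and 2, in that order.

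Of 46001 barcodes, 22567 had 1000 to 4500 genes and were kept, which left 5174 to 6135 cells and 33649565 to 42011650 UMIs (unique molecular identifiers, one per captured RNA molecule) per library. Clusters were named from marker genes and are called "-like" for that reason. The RT-like class (228 cells) summed to between 4955 and 5945 CPM for its own markers (CPM, the UMIs of a gene scaled to 1000000 UMIs of a class within a library), against 287 CPM at most in any other class, and the endothelial-like class (72 cells) to between 6376 and 7458 CPM. The myoid markers were weaker as a test of the label: they reached 20439 to 28072 CPM in the 2333 myoid-like cells but up to 48312 CPM in the pericyte-like cells, and none was among the 10 leading genes of the myoid-like cluster (Tnnt2, Sct and Fbxo32 led it). The fibroblast list also did not part its class from its neighbour, with 4686 to 6913 CPM in fibroblast-like and 3471 to 5089 CPM in interstitial-like cells, and Clec3b, one of its genes, led the interstitial-like cluster. The interstitial list did part them, with 4568 to 5082 CPM in interstitial-like and 1846 to 2749 CPM in fibroblast-like cells. Sox17 was at 356 and 312 CPM in control RT-like cells and at 45.5 and 34.6 CPM in Sox17-cKO RT-like cells. In endothelial-like cells it was at 508 and 344 CPM and at 102 and 101 CPM. Both replicate 1 libraries were processed with Cell Ranger 6.0.2 and both replicate 2 libraries with 6.1.2, so the replicate number and the software version cannot be told apart. Pairs of libraries shared 20 to 43 barcodes, at most 0.391% of the smaller library. The doublet caller marked no cell in either replicate 1 library and thus did not work there, so no cell was removed as a doublet, and leaving out the cells with the highest doublet scores was run as an alternative.

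Collagen chains took most of their reads in one stromal class. In the 2895 fibroblast-like cells (Lum and Sfrp1 are among the 10 leading genes) they made up 7.42% ± 1.61 of all UMIs (SD, n = 4 libraries), with 5.60, 8.71, 6.53 and 8.82% by library. Both replicate 2 libraries were the higher ones there, and the genotypes overlapped. The share was 1.40% in myoid-like cells, 1.36% in interstitial-like cells (1461 cells, with Igf1 and Dlk1 among the 10 leading genes), 1.11% in pericyte-like cells (297 cells) and 0.334% in Leydig-like cells (249 cells). It was 0.312% in endothelial-like and 0.114% in RT-like cells. Germ-like cells (6965 cells) gave 0.0257% and serve here as a level for comparison. Free RNA taken up in droplets was not measured. Sertoli-like cells (6112 cells) were at 0.0583% and SV Sertoli-like cells (115 cells) at 0.0538%. Macrophage-like cells averaged 0.081%, a mean set by Sox17-cKO replicate 1 at 0.208%, and that library also held the most myoid and fibroblast marker RNA in its macrophage-like cells (965 and 299 CPM summed).

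The make-up of that share differed by class. Fibrillar chains made up 6.16% of the UMIs of fibroblast-like cells, against 0.334% for type IV and 0.718% for type VI. In myoid-like cells the order was turned, with 0.684% for type IV, 0.527% for the fibrillar chains and 0.155% for type VI. Interstitial-like cells held more fibrillar (0.852%) than type IV RNA (0.282%). In endothelial-like cells type IV led with 0.207%, against 0.0529% fibrillar, and these cells also held pericyte marker RNA at 1646, 483, 204 and 337 CPM (4028 to 5319 CPM in pericyte-like cells), whose part in the endothelial-like values was not tested. RT-like cells gave 0.0506% type IV, 0.0246% multiplexin (Col15a1 and Col18a1, basement membrane proteoglycans) and 0.0167% fibrillar RNA, and Sertoli-like cells gave 0.0238% multiplexin on average. In control replicate 2 the fibrillar share of Sertoli-like cells (0.0272%) was above the multiplexin share (0.0191%), and below it in the other libraries. The fibrillar shares of RT-like and Sertoli-like cells (0.0167% and 0.0155%) stood beside 0.0157% in germ-like cells.

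**Figure D1:**
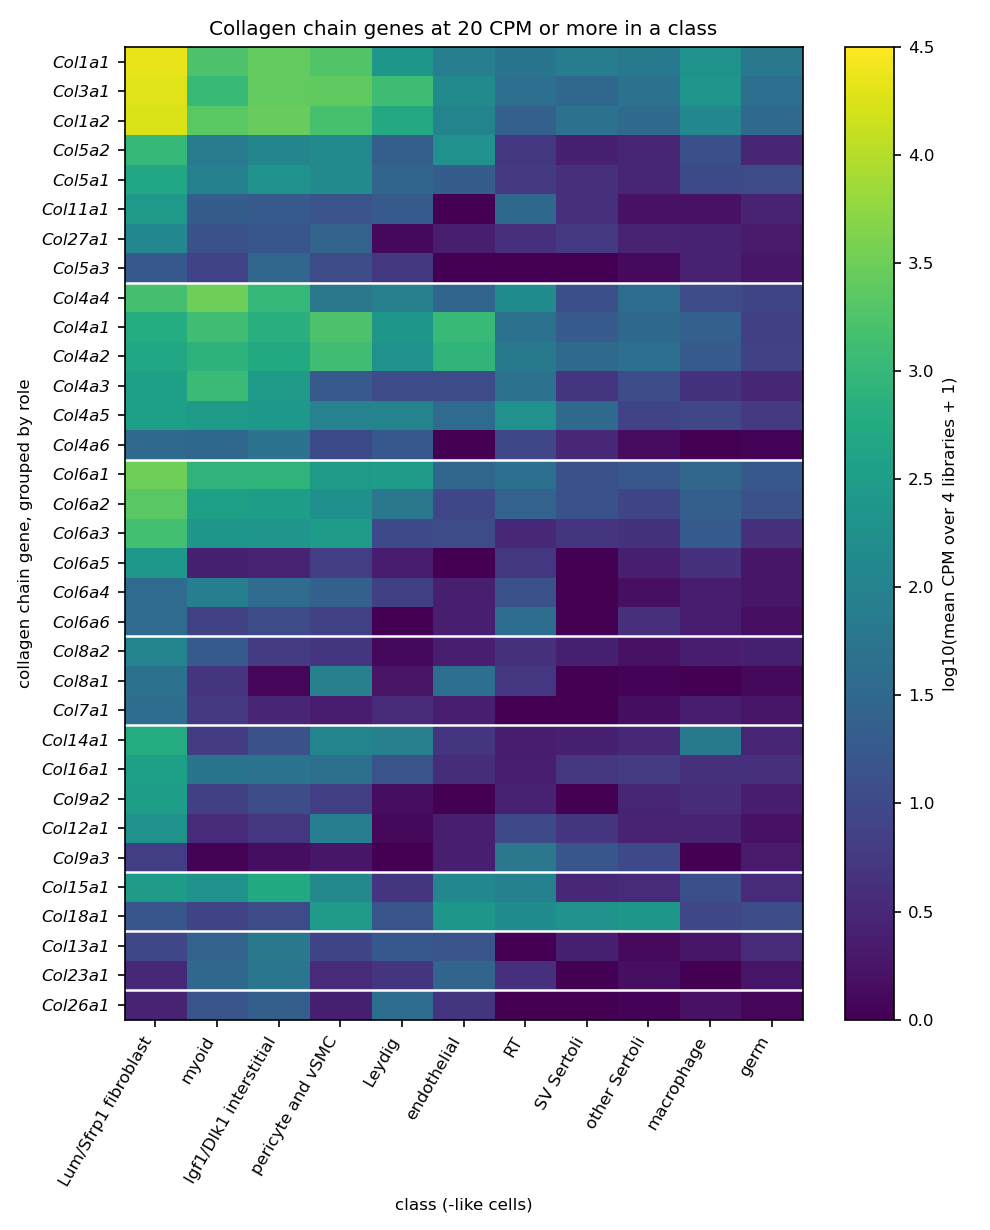
Heat map of the 33 collagen chain genes that reached 20 CPM in at least 1 class (rows, grouped by role) over the cell classes (columns), with colour giving log10 of the mean CPM over the 4 libraries plus 1. Fibroblast-like cells have the highest values for most fibrillar and type VI chains, while Col4a3 and Col4a4 peak in myoid-like cells and Col18a1 is seen in pericyte-like, endothelial-like, Sertoli-like and RT-like cells.

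Of the 44 genes, 33 reached a mean of 20 CPM in at least 1 class, 11 did not, and every gene had at least 1 UMI. A 3′ UMI counts molecules without regard to length, but genes can still be captured unequally, so levels of different genes are compared only loosely.

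Among the fibrillar chains, Col1a1 and Col1a2, which form type I collagen, and Col3a1, which forms type III, led every other member. Col1a1 was at 13928, 28599, 16382 and 30213 CPM in fibroblast-like cells, and both replicate 2 libraries lay above both replicate 1 libraries whatever the genotype. Col3a1 was at 15051, 22203, 18126 and 20453 CPM, and Col1a2 at 15685, 20238, 17397 and 20571 CPM, with the same order of replicates and a smaller spread. Outside fibroblast-like cells, Col1a1 averaged 2643 CPM in interstitial-like, 1875 in pericyte-like, 1738 in myoid-like and 238 in Leydig-like cells. Col3a1 averaged 2664 CPM in interstitial-like, 2525 ± 1892 in pericyte-like, 1271 in Leydig-like and 1095 in myoid-like cells, so that Leydig-like cells held more Col3a1 than Col1a1 and myoid-like cells the reverse. The 64.1 CPM of Col1a1 in Sertoli-like and 54.6 CPM in RT-like cells were next to 62.7 CPM in germ-like cells, and the part of free RNA in them was not tested.

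In fibroblast-like cells the minor fibrillar chains were at lower levels than type I. Col5a1 and Col5a2 form type V, which sits inside type I fibrils and limits their width. Col5a2 was at 1037, 1061, 976 and 955 CPM in fibroblast-like cells, a spread of a few percent. It averaged 187 CPM in endothelial-like cells but with 292, 94.3, 275 and 84.2 CPM, where both replicate 1 libraries were the higher ones. Over all libraries the endothelial-like cells held 78 UMIs of Col5a2, against 57 of Col1a1 and 65 of Col1a2. Col5a1 was at 400, 606, 455 and 535 CPM in fibroblast-like cells and averaged 196 CPM in interstitial-like, 136 in pericyte-like and 94.9 in myoid-like cells. Col5a3, the third type V chain, was the one fibrillar gene that was highest in interstitial-like cells, at 7.38, 30.8, 35.7 and 43.3 CPM, with control replicate 1 far below the others. Col11a1, a chain of type XI, was at 242, 229, 336 and 246 CPM in fibroblast-like cells. RT-like cells came next by their mean, at 11.3, 8.66, 45.5 and 64.7 CPM, where both Sox17-cKO libraries were above both controls. That rank rests on the Sox17-cKO libraries. Col27a1, a fibrillar chain best known from cartilage, was at 101, 124, 113 and 157 CPM in fibroblast-like cells.

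Type IV collagen has 6 chains, which in the mouse lie as 3 head-to-head pairs of genes. Col4a1 and Col4a2 make the form found in all basement membranes, Col4a3, Col4a4 and Col4a5 together make the network best known from the kidney glomerulus, and Col4a5 with Col4a6 makes one found around smooth muscle and in some epithelia. The promoters of the first 2 pairs are shown because each stretch holds the annotated starts of 2 genes whose levels are compared here. The windows are RefSeq's 300 bases around the start of the minus-strand gene (250 before and 50 after), in build GRCm38.p6 and written 5′ to 3′ on the minus strand. The window of Col4a4 is chr1:82586800-82587099, and that of Col4a1 is chr8:11312777-11313076. Capitals mark matches, on either strand, to a CCAAT box (CCAAT or ATTGG) or a GC box (GGGCGG or CCGCCC).
Col4a4 and Col4a3: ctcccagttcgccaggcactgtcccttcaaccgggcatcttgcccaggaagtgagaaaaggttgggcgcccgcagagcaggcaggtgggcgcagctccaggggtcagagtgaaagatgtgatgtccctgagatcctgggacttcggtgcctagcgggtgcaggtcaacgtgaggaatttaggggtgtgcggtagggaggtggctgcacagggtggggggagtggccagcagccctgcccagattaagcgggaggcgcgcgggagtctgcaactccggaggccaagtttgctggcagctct
Col4a1 and Col4a2: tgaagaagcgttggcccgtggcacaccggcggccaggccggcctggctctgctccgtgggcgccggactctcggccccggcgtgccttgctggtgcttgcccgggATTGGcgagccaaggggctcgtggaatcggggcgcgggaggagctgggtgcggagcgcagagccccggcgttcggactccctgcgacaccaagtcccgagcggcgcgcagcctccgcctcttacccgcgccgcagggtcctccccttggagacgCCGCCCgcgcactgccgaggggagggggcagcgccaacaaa

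In the first window Col4a4 starts at base 251, and the annotated start of Col4a3 on the other strand lies 72 bases away, at base 179 (Col4a4, ENSMUSG00000067158, chromosome 1, 82448423 to 82586849, and Col4a3, ENSMUSG00000079465, chromosome 1, 82586921 to 82722059). In the second the first exons overlap, since the annotated start of Col4a2 is at base 272 and that of Col4a1 at base 251, 21 bases apart (Col4a1, ENSMUSG00000031502, chromosome 8, 11198423 to 11312826, and Col4a2, ENSMUSG00000031503, chromosome 8, 11312805 to 11449287). The starts of Col4a6 and Col4a5 on chromosome X are 1309 bases apart. The Col4a4 window holds neither of these boxes, nor the letters TATAAA of the third promoter box searched on both strands, the TATA box. The Col4a1 window holds a CCAAT box at bases 106 to 110 and a GC box at bases 260 to 265. Over 32851 RefSeq promoter windows of this length, 13.6% hold a TATA box, 37.4% a CCAAT box and 35.7% a GC box, and of the 38 members with a window 5, 13 and 23 do. These are matches of letters, and no binding was measured.

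Col4a4 was the most abundant type IV gene in myoid-like cells and one of the steadiest members in the study. It was at 3106, 3227, 3190 and 3317 CPM there, with an SD of 87.5 CPM around a mean of 3210 CPM. It averaged 1482 CPM in fibroblast-like and 979 CPM in interstitial-like cells. Its neighbour Col4a3 was also highest in myoid-like cells, at 1275, 1050, 1457 and 888 CPM, and averaged 356 CPM in fibroblast-like and 282 CPM in interstitial-like cells. For both genes, every library of myoid-like cells lay above every library of the other classes.

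Col4a1 and Col4a2 were spread over a wider set of classes that included the vessels. Col4a1 was highest in pericyte-like cells, at 1294, 1341, 1978 and 2416 CPM. It came next in myoid-like cells with 1484, 1153, 1720 and 1017 CPM and in endothelial-like cells with 1077, 1415, 888 and 1128 CPM, and these 3 classes overlapped. Col4a2 was at 885, 1107, 1046 and 2240 CPM in pericyte-like, 785, 1221, 367 and 1089 CPM in endothelial-like and 740, 825, 839 and 827 CPM in myoid-like cells. Here the endothelial-like cells overlapped both other classes, and every myoid-like library lay below every pericyte-like one. The fibroblast-like and interstitial-like cells followed with 618 and 722 CPM of Col4a1 and 503 and 539 CPM of Col4a2. Counted over the 4 libraries, 0.882 UMIs of Col4a3 were found per UMI of Col4a1 in myoid-like cells, against 0.585 in fibroblast-like, 0.0114 in endothelial-like and 0.0085 in pericyte-like cells.

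Col4a5 had a flatter distribution than its partners. It was at 312, 375, 355 and 345 CPM in fibroblast-like cells and averaged 278 CPM in myoid-like and 249 CPM in interstitial-like cells. RT-like cells came close to these stromal classes with 189, 232, 149 and 197 CPM, above the 7.13 CPM of Sertoli-like and the 4.69 CPM of germ-like cells in every library. Col4a6 was low throughout, at 55.4, 41.2, 71.4 and 32.7 CPM in interstitial-like cells and at means of 34.0 CPM in fibroblast-like and 31.2 CPM in myoid-like cells, 3 classes that overlapped.

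**Figure D2:**
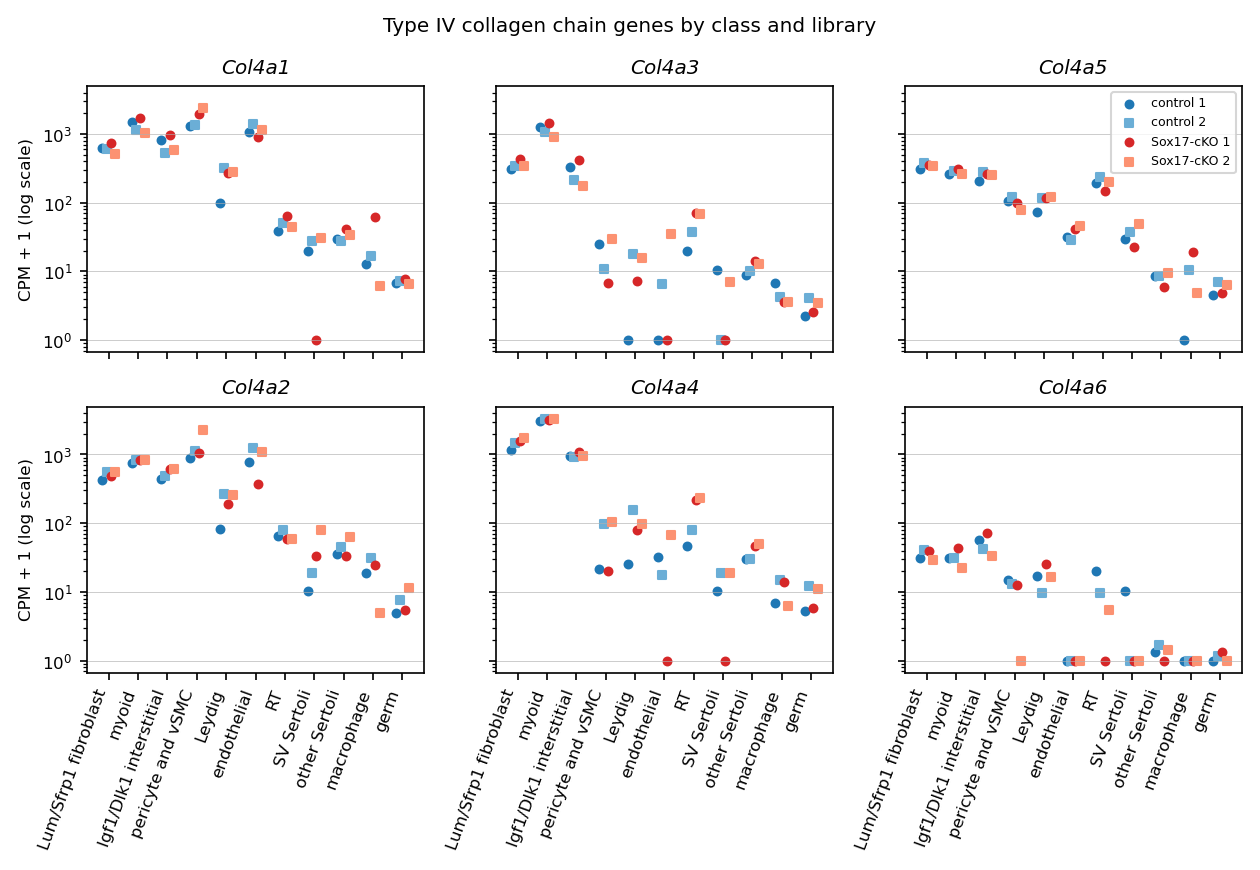
CPM plus 1 on a log scale for the 6 type IV chain genes (panels) in each class (x axis), with 1 point per library and a marker for each library. Col4a3 and Col4a4 fall from their highest levels in myoid-like cells (means of 1168 and 3210 CPM) to means of 2.10 and 7.65 CPM in germ-like cells, while Col4a1 and Col4a2 average between 865 and 1757 CPM in pericyte-like and endothelial-like cells and Col4a5 stays between 149 and 232 CPM in RT-like cells.

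Type VI collagen is built from Col6a1, Col6a2 and one longer chain, most often Col6a3, for which Col6a4, Col6a5 and Col6a6 can stand in. In fibroblast-like cells Col6a1 was at 2101, 3948, 2569 and 4453 CPM and Col6a2 at 1441, 2601, 1739 and 3201 CPM. Both were again higher in the replicate 2 libraries of either genotype. Col6a3 was steadier at 1221, 1496, 1406 and 1273 CPM. Myoid-like cells averaged 853 CPM of Col6a1, 362 of Col6a2 and 239 of Col6a3, and interstitial-like cells 833, 333 and 221 CPM of the same genes, while Col6a3 averaged 309 CPM in pericyte-like cells.

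The 3 alternative type VI chains lie next to each other on one strand of chromosome 9, and each was highest in a different class. Col6a4 was at 81.7, 101, 49.3 and 108 CPM in myoid-like cells, with means of 36.2 CPM in fibroblast-like and 35.8 CPM in interstitial-like cells. Its level was lowest in Sox17-cKO replicate 1 in all 3 of these classes. Col6a5 was at 116, 292, 276 and 300 CPM in fibroblast-like cells, with control replicate 1 the lowest, and every other class averaged far less. Col6a6 was at 75.6, 51.9, 8.27 and 28.6 CPM in RT-like cells, where both controls lay above both Sox17-cKO libraries, and at 21.9, 52.1, 20.5 and 49.7 CPM in fibroblast-like cells, so the 2 classes overlapped.

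The fibril-associated chains coat or link fibrils and 4 of the 5 described here were highest in fibroblast-like cells. Col14a1 (type XIV, an interrupted collagen on the fibril surface) was at 608, 621, 540 and 549 CPM there. It averaged 107 CPM in pericyte-like and 91.6 CPM in Leydig-like cells. Macrophage-like cells held 70.5, 71.4, 68.2 and 47.1 CPM, which was well above the 1.88 CPM of germ-like cells. Col16a1 was at 335, 369, 359 and 396 CPM in fibroblast-like cells and at 55.9 CPM in myoid-like cells, and Col9a2, a type IX chain best known from cartilage, at 237, 355, 257 and 456 CPM. The 3 genes were each several times lower in the class that came next. Col12a1, of tendon and fascia, was at 199, 229, 208 and 187 CPM in fibroblast-like and averaged 83.6 CPM in pericyte-like cells. The second type IX chain behaved otherwise. Col9a3 was at 83.2, 46.7, 37.2 and 72.2 CPM in RT-like cells and at no more than a mean of 15.3 CPM in any other class, although chains of type IX are known as parts of one protein.

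The multiplexins Col15a1 and Col18a1 are proteoglycans at basement membranes, and the end of the Col18a1 protein is cut off as endostatin. Col15a1 was highest in interstitial-like cells at 531, 583, 479 and 600 CPM and averaged 302 CPM in fibroblast-like and 199 CPM in myoid-like cells. In RT-like cells it was at 22.7, 62.3, 116 and 173 CPM, with both Sox17-cKO libraries above both controls, and in Sertoli-like cells at 2.61 CPM, next to 2.43 CPM in germ-like cells. Col18a1 had a different pattern, although both genes reached a mean of 20 CPM in pericyte-like, endothelial-like and RT-like cells. It was at 256, 186, 262 and 239 CPM in Sertoli-like, 160, 172, 292 and 180 CPM in SV Sertoli-like and 132, 135, 149 and 194 CPM in RT-like cells, against 14.8 CPM in fibroblast-like, 10.4 CPM in germ-like and 7.24 CPM in myoid-like cells. The vessel classes shared the high level, with 232, 325, 379 and 97.3 CPM in pericyte-like and 431, 289, 133 and 118 CPM in endothelial-like cells. With every cell thinned to 2000 UMIs, a Col18a1 UMI was found in 30.9% of Sertoli-like cells (52.7% unthinned), 1.99% of germ-like cells (8.03% unthinned) and 1.73% of myoid-like cells (3.94% unthinned). The thinning left out 627 of the 6112 Sertoli-like, 234 of the 6965 germ-like and 5 of the 2333 myoid-like cells.

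Among the short-chain and anchoring collagens, Col8a1 and Col8a2 form type VIII, a network of vessel walls and the cornea. Col8a1 was at 55.5, 96.9, 86.7 and 118 CPM in pericyte-like cells and averaged 48.1 CPM in fibroblast-like cells, and Col8a2 was at 95.9, 122, 91.3 and 125 CPM in fibroblast-like cells. Col7a1, the anchoring fibril chain, was at 29.8, 40.3, 50.6 and 45.2 CPM in fibroblast-like cells. Of the membrane-spanning collagens, Col13a1 was at 86.7, 80.2, 41.1 and 42.6 CPM in interstitial-like cells, where the controls lay above the knockouts. Col23a1 was at 62.7, 53.8, 32.1 and 78.4 CPM in the same class, where the genotypes overlapped, and averaged 30.9 CPM in myoid-like and 28.1 CPM in endothelial-like cells. Col26a1, a secreted protein with short collagen stretches known from testis and ovary, was at 24.2, 63.5, 28.8 and 45.7 CPM in Leydig-like cells.

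The remaining 11 genes stayed under 20 CPM. Col19a1 reached 15.6 CPM in pericyte-like cells, with 29 UMIs in all. Col22a1 averaged 10.8 CPM in Leydig-like cells, with an SD of 4.16 CPM between libraries. It was seen more evenly in germ-like cells, at 7.57, 8.24, 8.09 and 7.84 CPM, against 0.548 CPM in Sertoli-like cells. Col17a1, Col25a1, Col24a1, Col28a1, Col11a2, Col9a1, Col2a1, Col20a1 and Col10a1 averaged between 0.656 (Col10a1) and 6.8 CPM (Col17a1) in their highest class. Col2a1 and Col11a2, the partners of Col9a2 and Col11a1 in cartilage, had 5 and 43 UMIs in fibroblast-like cells and 70 and 72 UMIs in germ-like cells.

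Class was compared with class on UMIs summed per library, by edgeR's quasi-likelihood test with the library as a block and Benjamini-Hochberg adjustment over all genes tested. Folds below are on the log2 scale with their SE. All 4 libraries gave a sum to each class, and cells were clustered without the collagen genes and their pathway genes, so these genes did not draw the class borders directly. The classes still differ in many other genes, and the share of all genes called is given beside each count of members.

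Against fibroblast-like cells, myoid-like cells were higher in 8 and lower in 25 of the 34 members tested, while 21.2% of all tested genes were higher and 22.2% lower. The median member was at -2.55 and the median gene at 0.00. The 8 higher members were Col4a1, Col4a2, Col4a3, Col4a4, Col6a4, Col13a1, Col23a1 and Col26a1. Of the type IV genes, Col4a3 rose by 1.69 ± 0.0919 (adjusted p = 2.0e-09), Col4a4 by 1.13 ± 0.0775 (adjusted p = 2.5e-08), Col4a1 by 1.10 ± 0.072 (adjusted p = 1.5e-08) and Col4a2 by 0.68 ± 0.0678 (adjusted p = 1.2e-06) in edgeR's test. Their X-linked relatives did not join them: Col4a5 was lower at -0.33 ± 0.067 (adjusted p = 0.00106), and Col4a6 was at -0.23 and did not pass the test (adjusted p = 0.136). Col6a4 was at 1.24, while the other type VI chains were lower, from -1.90 for Col6a1 to -7.47 for Col6a5. All 9 fibrillar genes tested were lower, among them Col3a1 at -4.10, Col1a1 at -3.64, Col1a2 at -3.05 and Col5a1 at -2.40.

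Interstitial-like cells were higher than fibroblast-like cells in 5 and lower in 23 of 33 members tested, against 18% and 17.2% of all genes. The median member was at -2.71 and the median gene at 0.05. The 5 were Col23a1 (4.59 ± 0.193), Col26a1 (3.33), Col13a1 (2.83), Col15a1 (0.84 ± 0.147, adjusted p = 4.7e-05 in edgeR's test) and Col5a3 (0.75). Col4a1 and Col4a2 were at 0.10 ± 0.0879 and 0.01 ± 0.0835 and did not pass the test, whereas Col4a3 and Col4a4 were lower at -0.54 and -0.68. Among the lower members were Col14a1 at -5.82, Col12a1 at -5.74 and Col9a2 at -5.10. The membrane-spanning Col13a1 and Col23a1, and Col26a1, were thus higher in both other stromal classes than in fibroblast-like cells.

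Myoid-like cells were higher than interstitial-like cells in 10 and lower in 13 of 28 members, against 15.5% and 14.9% of all genes, with a median member at -0.37 and a median gene at -0.03. Col4a3 led the higher group at 2.22 ± 0.0824, followed by Col8a2 at 2.14, Col4a4 at 1.80 ± 0.0589 and Col6a4 at 1.32. Col4a1 at 0.99 ± 0.0628 and Col4a2 at 0.67 ± 0.0656 came after them, and Col4a5 was higher at 0.20. Col4a6 was lower at -0.51 ± 0.121 (edgeR adjusted p = 0.00269). The lower group also held Col5a3 at -2.25, Col15a1 at -1.39, Col3a1 at -1.15 and Col13a1 at -1.07. This count was among the less stable ones: DESeq2 called 15 of the members, and a fit with no library block 12.

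**Figure D3:**
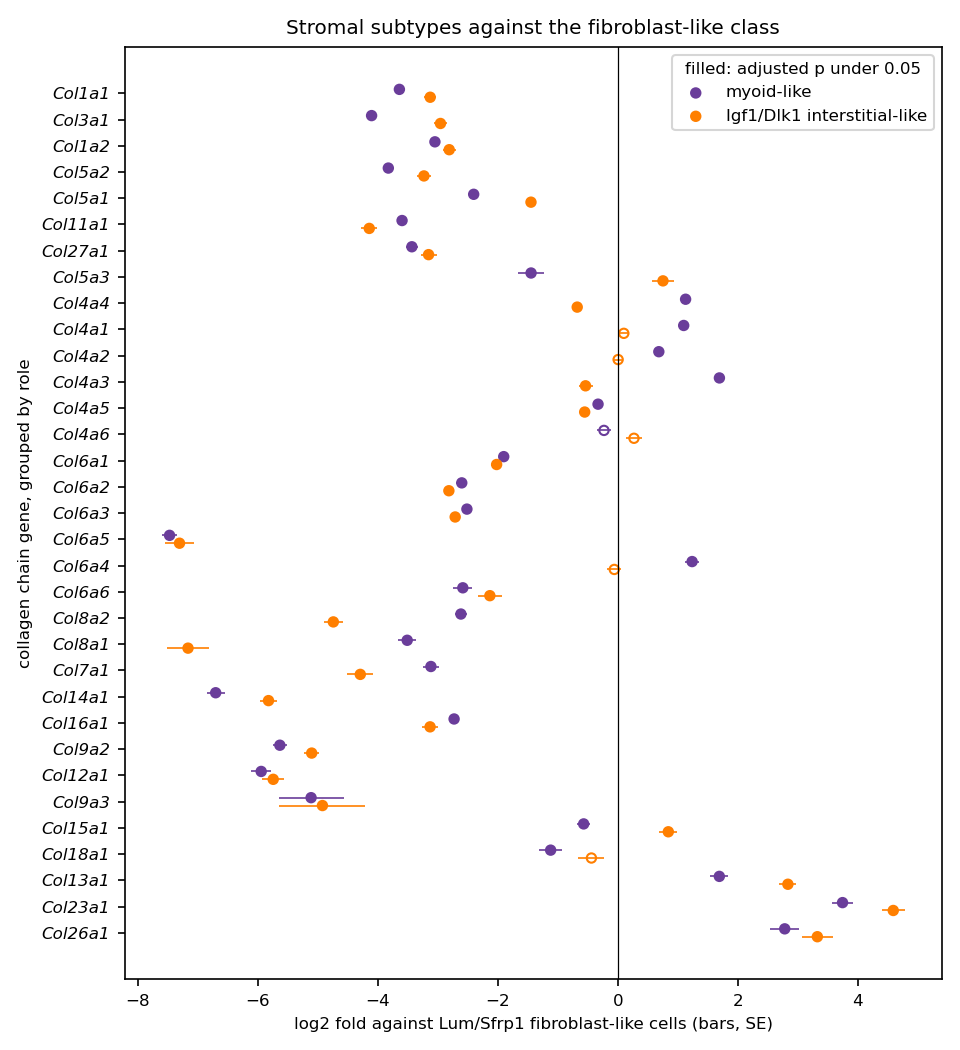
Log2 fold of each tested collagen chain gene in myoid-like and in interstitial-like cells against fibroblast-like cells, with bars for the SE and filled points for an adjusted p under 0.05. Most genes lie left of 0 in both, and Col4a3, Col4a4, Col4a1 and Col4a2 lie right of 0 in myoid-like cells, between 0.68 and 1.69.

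Myoid-like and Sertoli-like cells, which face each other across the tubular basement membrane, differed in 31 of 32 members tested, 29 higher and 2 lower in myoid-like cells, against 35.4% and 37.7% of all genes. The median member was at 5.37 and the median gene at -0.06. Every type IV chain was higher in myoid-like cells, from 4.45 ± 0.13 for Col4a2 to 6.99 ± 0.157 for Col4a3. The 2 lower members were Col18a1, at -4.99 ± 0.16 (adjusted p = 1.5e-11 in edgeR's test), and Col9a3, which had 2 UMIs in all myoid-like cells. Sertoli-like cells held Col4a2 at 34.2, 44.4, 32.8 and 62.5 CPM, Col4a4 at 28.9, 28.9, 45.4 and 48.2 CPM and Col4a1 at 29.1, 26.9, 40.4 and 32.7 CPM. Each library exceeded every germ-like library for these genes (means of 6.38, 7.65 and 6.06 CPM), so that the type IV RNA of Sertoli-like cells was small but above the germ-like level. Col4a5 at 7.13 CPM stood beside 4.69 CPM in germ-like cells.

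SV Sertoli-like cells were few, at 21 to 41 per library, and differed from the other Sertoli-like cells in 2 of 14 members tested, 1 higher and 1 lower, against 7.48% of all genes higher and 11.6% lower. Col4a5 was at 28.2, 36.2, 21.6 and 48.0 CPM in SV Sertoli-like cells and at 7.45, 7.57, 4.87 and 8.63 CPM in the others, with no overlap. It was higher by 2.29 ± 0.525 in edgeR's test (adjusted p = 1.9e-04), on 17 UMIs in SV Sertoli-like cells. Col4a4 was lower at -1.59 ± 0.548 (edgeR adjusted p = 0.0242), with 9.39, 18.1, 0 and 18 CPM against 28.9 to 48.2 CPM. The median member was at -0.18 and the median gene at -0.26, so that members are to be read against a small shift of all genes. DESeq2 called 749 genes higher and 487 lower where edgeR called 767 and 1194, and with cells under 10% mitochondrial UMIs no member was called. More members, and a larger share of all genes, were called with collagen and pathway genes kept in the clustering, which formed another set of cells.

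RT-like cells differed from Sertoli-like cells in 14 of 18 members, 10 higher and 4 lower, against 24.5% and 28.0% of all genes. The median member was at 1.34 and the median gene at -0.10. Of the type IV chains, Col4a5 rose most, by 4.52 ± 0.173 (adjusted p = 3.3e-14 in edgeR's test), followed by Col4a3 at 1.96 ± 0.266 and Col4a4 at 1.62 ± 0.212, while Col4a1 at 0.38 ± 0.196 and Col4a2 at 0.33 ± 0.203 did not pass. Col11a1 (5.30 ± 0.526), Col15a1 (4.94 ± 0.37), Col6a6 (3.46 ± 0.419) and Col9a3 (2.70 ± 0.343) were higher as well, as were Col12a1, Col6a2 and Col6a1 at 2.00, 1.45 and 1.23. These folds are taken over both genotypes. The RT-like levels of Col4a3, Col4a4, Col11a1, Col15a1 and Col6a6, but also of Col4a2, Col6a2 and Col18a1, did not overlap between the genotypes. With 2 libraries against 2, levels often separate without any effect. The share of all genes without overlap was not counted, so no genotype effect is read from this. Col4a4 was at 45.4 and 79.6 CPM in RT-like against 28.9 and 28.9 CPM in Sertoli-like cells of controls, and at 219 and 233 CPM against 45.4 and 48.2 CPM in Sox17-cKO. Col4a3, Col4a4, Col11a1, Col15a1 and Col6a6 were above the Sertoli-like level in each of the 4 libraries. The 4 lower members were Col18a1 at -0.81, Col1a2 at -0.79, Col1a1 at -0.54 and Col16a1, which had 2 UMIs in RT-like cells, and the levels of Col1a1 and Col1a2 were those of germ-like cells in both classes. With every cell thinned to 2000 UMIs, Col4a5 was found in 34.1% of RT-like (72.4% unthinned), 1.15% of Sertoli-like (3.03%) and 1% of germ-like cells (3.55%). Col4a4 was found in 23.5% of RT-like (48.2% unthinned), 6.30% of Sertoli-like (16.5%) and 1.74% of germ-like cells (4.78%), with 8 of 228 RT-like cells left out.

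The ratio of Col4a5 to Col4a1 in RT-like cells was above that of every stromal class. RT-like cells held 5, 4.62, 2.40 and 4.52 UMIs of Col4a5 per UMI of Col4a1. The ratio over all libraries was 4.23 in RT-like cells, against 1.70 in SV Sertoli-like, 0.593 in fibroblast-like, 0.230 in myoid-like, 0.220 in Sertoli-like and 0.031 in endothelial-like cells. No library of fibroblast-like, myoid-like, interstitial-like or pericyte-like cells exceeded 0.674, and Leydig-like cells reached 0.75 in one. The RT-like values rest on 351 UMIs of Col4a5 and 83 of Col4a1. The ratio of Col4a3 to Col4a4 was 0.331 in RT-like and 0.324 in myoid-like cells. The ratio of Col4a3 to Col4a1 in RT-like cells was split by genotype, at 0.5 and 0.724 in controls, below every myoid-like library (0.847 to 0.91), and at 1.13 and 1.55 in Sox17-cKO, above each of them.

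Endothelial-like cells, at 8 to 26 per library, were higher than fibroblast-like cells in 3 and lower in 25 of 31 members tested, against 10.9% and 14.9% of all genes. The median member was at -6.13 and the median gene at -0.11. Col18a1 was higher by 3.70 ± 0.28 (edgeR adjusted p = 2.0e-17), Col23a1 by 3.35 ± 0.63 and Col4a1 by 0.57 ± 0.179 (edgeR adjusted p = 0.011), while Col4a2 at 0.41 ± 0.191 did not pass. Among the lower members, Col5a2 fell least of the fibrillar chains, at -2.95 ± 0.232, against -8.36 for Col1a1. Col9a2, Col11a1, Col6a5, Col4a6 and Col5a3 had no UMI among the 521404 of endothelial-like cells. Set against 3 counts over the class (5.75 CPM), they were at least 56.7-fold, 45.7-fold, 42.7-fold, 5.9-fold and 2.8-fold lower than in fibroblast-like cells. Col27a1, Col8a2, Col12a1, Col6a6, Col6a4 and Col7a1 had 1 UMI each in endothelial-like cells, and Col14a1 and Col16a1 had 2 each. All these members passed the filter on low counts only through fibroblast-like cells. The count of 25 lower members and the median member rest partly on them and do not measure how many chains differ.

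Chains that share a helix were not always in one ratio. Col1a1 and Col1a2 were counted in ratios of 0.888, 1.41, 0.942 and 1.47 in fibroblast-like cells and of 0.584, 0.937, 0.634 and 0.971 in myoid-like cells. Each replicate 2 library was above each replicate 1 library in both classes, and the ratio of Col4a1 to Col4a2 in myoid-like cells moved the other way, at 2.01, 1.40, 2.05 and 1.23. Within a library the classes kept their order, with fibroblast-like cells above myoid-like cells for the type I ratio and below them for Col4a1 to Col4a2. The ratio of Col6a1 to Col6a2 moved little with the replicate number, at 1.46, 1.52, 1.48 and 1.39 in fibroblast-like cells against 2.31, 2.42, 2.46 and 2.26 in myoid-like and 2.54, 2.50, 2.70 and 2.35 in interstitial-like cells. The ratio of Col3a1 to Col1a2 was 1.04 in fibroblast-like and 0.512 in myoid-like cells, without overlap between libraries. Col4a3 was counted less often than its neighbour Col4a4 in every library of fibroblast-like, myoid-like and interstitial-like cells, at ratios of 0.411, 0.325, 0.457 and 0.268 in myoid-like cells. In pericyte-like cells the ratio was 1.17 in control replicate 1 (7 against 6 UMIs) and 0.103, 0.3 and 0.282 in the other libraries.

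**Figure D4:**
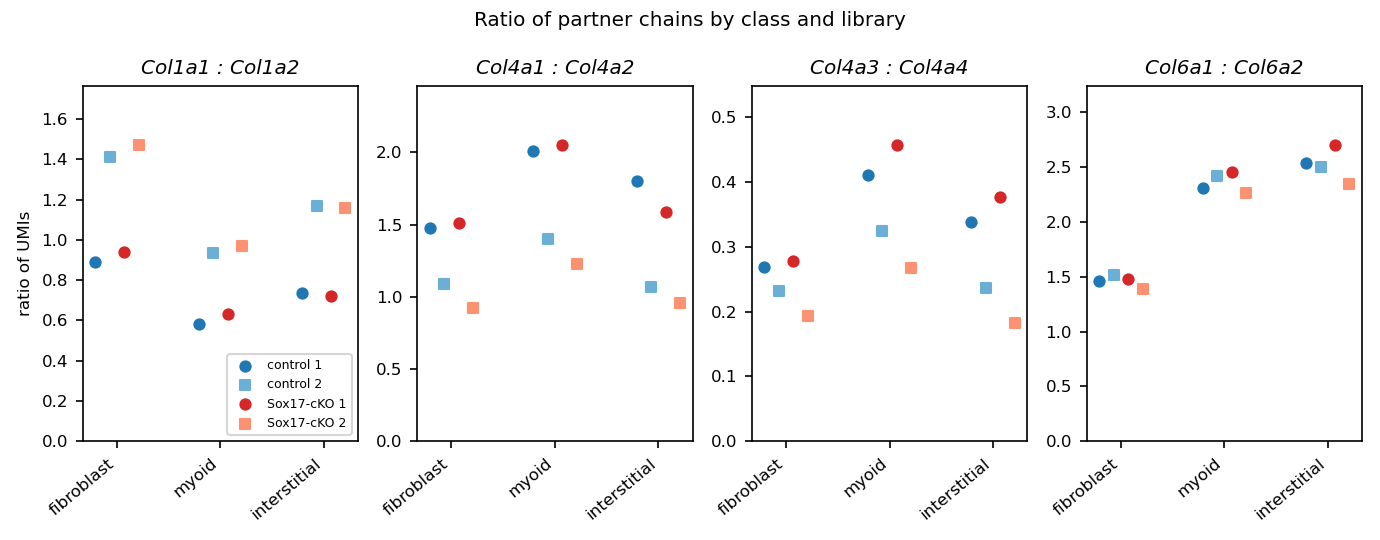
Ratio of UMIs of partner chains (panels) in fibroblast-like, myoid-like and interstitial-like cells, with 1 point per library and y axes that start at 0. The type I ratio separates replicate 1 from replicate 2 libraries (0.888 and 0.942 against 1.41 and 1.47 in fibroblast-like cells), while the ratio of Col6a1 to Col6a2 separates fibroblast-like cells (1.39 to 1.52) from the other 2 classes (2.26 to 2.70), which overlap.

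The genes that fold, process, bind and break down collagen were read from lists of 20, 14, 8 and 11 genes. In myoid-like against fibroblast-like cells, where 22.2% of all genes were lower and 21.2% higher, 17 of the 19 tested folding and modification genes of the endoplasmic reticulum were lower and 1 higher, with a median of -0.74 against 0.00 for all genes. The hydroxylation partners Fkbp10, P3h3 and P3h4 were at -1.42, -1.47 and -1.27. Of the 10 tested processing and crosslinking genes 8 were lower and 1 higher, led by the lysyl oxidases Loxl2 at -4.70 and Lox at -2.56 and by Pcolce, which speeds C-propeptide removal, at -2.18. Of the 6 receptors 3 were higher and 1 lower: the integrin subunit Itgb1 (0.58) and the discoidin receptor Ddr1 (0.45) rose, and Itga11 was at -1.89. Of the 8 breakdown genes 6 were lower and 1 higher, with the gelatinase Mmp2 at -2.38, the collagen uptake receptor Mrc2 at -1.94 and the inhibitor Timp3 at 1.19. Against fibroblast-like cells, interstitial-like cells were lower in 18 of 19, 8 of 9, 4 of 5 and 6 of 8 genes of the 4 lists and higher in none, beside 17.2% of all genes lower and 18% higher. Endothelial-like cells were lower in 13 of 18, 7 of 8, 3 of 5 and 5 of 7, and higher in 1, 1, 0 and 1, beside 14.9% of all genes lower and 10.9% higher.

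Against interstitial-like cells, where 15.5% of all genes were higher and 14.9% lower, myoid-like cells had 3 higher and 7 lower of 18 folding genes, 5 and 2 of 9 processing genes, 3 and 0 of 5 receptors and 2 and 2 of 8 breakdown genes. The collagen-binding integrin subunit Itga1 was at 2.77. Against Sertoli-like cells, with 35.4% of all genes higher and 37.7% lower, myoid-like cells were higher in 12 and lower in 4 of 18 folding genes, higher in 8 of 9 processing genes, higher in 4 and lower in 2 of 6 receptors and higher in all 8 breakdown genes tested.

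In RT-like against Sertoli-like cells 24.5% of all genes were higher and 28.0% lower. Of 17 folding genes 7 were higher and 5 lower. Serpinh1, the collagen chaperone HSP47, was at 170, 192, 99.3 and 220 CPM in RT-like and 29.7, 42.7, 19.8 and 63.7 CPM in Sertoli-like cells, a log2 fold of 1.93 and no overlap. The glycosyltransferase Colgalt1 went the other way at -2.55, with 58.9 to 83.2 CPM against 310 to 458 CPM, and so did the lysyl hydroxylase Plod2 at -1.66. Of 7 processing genes 3 were higher (Loxl1 at 4.02, Loxl3 at 3.32 and Bmp1 at 3.13) and 1 lower, of 4 receptors 2 were higher (Ddr2 at 4.67 and Ddr1 at 0.67) and 1 lower, and none of 4 breakdown genes passed. SV Sertoli-like cells showed the same directions for Serpinh1 (1.32) and Colgalt1 (-1.63) among 2 higher and 4 lower of 15 folding genes, beside 7.48% of all genes higher and 11.6% lower. No processing gene of 4 and no receptor of 3 passed there, and of 4 breakdown genes 1 was higher, the inhibitor Timp1 at 3.23, and 2 were lower, the membrane protease Mmp14 at -2.61 and Timp3 at -0.67.

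Sox17-cKO was compared with control in each class, 2 libraries against 2, by edgeR's quasi-likelihood test. No member was called in any of the 9 classes. The members tested numbered 34 in fibroblast-like, 31 in myoid-like, 28 in interstitial-like, 21 in pericyte-like, 19 in Leydig-like, 26 in Sertoli-like (SV included), 15 in RT-like, 8 in endothelial-like and 6 in macrophage-like cells. The background was 0% in 8 of these classes and 0.0882% in RT-like cells (6 of 6799 genes). DESeq2 called no member in any class either. At an unadjusted p under 0.05 there were 5 members in RT-like cells, 1 each in interstitial-like, Sertoli-like, endothelial-like and macrophage-like cells and 0 in the other classes. The share of all genes at that threshold was 5.75% in RT-like, 0.656% in interstitial-like, 0.689% in Sertoli-like, 3.36% in endothelial-like and 0.834% in macrophage-like cells, and 0.625 to 1.48% in the others. No gene of the 4 pathway lists was called in any class, in tests of up to 20, 10, 6 and 8 of their genes.

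The RT-like cells held 5 of the 9 differences at an unadjusted p under 0.05, and none passed the adjusted threshold. The 5 members at an unadjusted p under 0.05 were 5 of 15 tested, against 5.75% of all genes (391 of 6799). Col4a4 was at 45.4 and 79.6 CPM in controls and 219 and 233 CPM in Sox17-cKO, with a log2 fold of 1.76 ± 0.333 (edgeR adjusted p = 0.139). The knockout-to-control ratio of its CPM was 4.83 in replicate 1 and 2.93 in replicate 2, each within one Cell Ranger version. Col11a1 was at 11.3 and 8.66 CPM against 45.5 and 64.7 CPM (2.51 ± 0.501, edgeR adjusted p = 0.175), with ratios of 4.01 and 7.47. Both its control values lay under the filter on low counts. Col11a1 was thus tested only through its Sox17-cKO values and lends no support to the counts of members here and below. Col15a1, at 22.7 and 62.3 CPM against 116 and 173 CPM, had a fold of 1.64 ± 0.436 (edgeR adjusted p = 0.386) and ratios of 5.10 and 2.78. Col4a3 was at 18.9 and 36.4 CPM against 70.3 and 67.7 CPM (1.17, edgeR adjusted p = 0.665), and Col6a6 at 75.6 and 51.9 CPM against 8.27 and 28.6 CPM (-1.54, edgeR adjusted p = 0.633). The groups did not overlap in these 5 genes, which is no further support, since genes picked for a low p tend to separate. The share of all genes without overlap was not counted. Single libraries moved several of these log2 folds. Col15a1 was at 2.65 without control replicate 2, 1.23 without control replicate 1 and 1.27 without Sox17-cKO replicate 2, Col6a6 at -2.87 without Sox17-cKO replicate 2 and -1.14 without Sox17-cKO replicate 1, and Col4a3 at 1.81 without control replicate 2. Of the other type IV chains, Col4a1 at 37.8, 50.2, 62.1 and 43.6 CPM and Col4a5 at 189, 232, 149 and 197 CPM overlapped between the genotypes. Col4a2 was at 64.3 and 79.6 CPM in controls and 57.9 and 58.7 CPM in Sox17-cKO, which did not overlap but lay close together.

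In a fit with the replicate number, and so the Cell Ranger version, as a block, 5 of the 15 members passed in RT-like cells, against 4.04% of all genes (275 of 6799). These were Col4a4, Col11a1 and Col15a1, which were higher in Sox17-cKO, and Col6a6 and Col1a1, which were lower. Col1a1 was at 15.1, 133, 8.27 and 61.7 CPM in RT-like cells beside 25.8, 119, 23.5 and 83 CPM in germ-like cells, and the part of free RNA in it was not tested. Beside these values, several marker lists separated the genotypes in RT-like cells. The summed myoid markers were at 148, 447, 99.3 and 140 CPM, higher in both controls. The summed fibroblast markers were at 166, 145, 331 and 293 CPM, higher in both Sox17-cKO libraries, mostly in Pdgfra (129, 113, 236 and 236 CPM) and Ogn (11.3, 12.1, 86.9 and 37.6 CPM), while Dpt, Clec3b and Pi16 were at 0 in every library. The summed interstitial markers, which also include Pdgfra, were at 276, 258, 410 and 460 CPM. The Sertoli markers were at 2307, 1814, 2726 and 2521 CPM, those of SV Sertoli cells at 458, 474, 567 and 576 CPM and those of the RT itself at 4955, 5141, 5945 and 5861 CPM, each higher in both Sox17-cKO libraries. The endothelial markers (533, 505, 389 and 304 CPM) and the mesothelial markers (518, 454, 277 and 376 CPM) were higher in both controls. The mesothelial list holds Wt1, and the Sertoli list Sox9 and Gata4, which the study treats as markers common to Sertoli and RT cells. These sums thus also count genes of RT cells themselves. Without the cells that held a UMI of Lum, Dcn, Dpt or Ogn, the folds were 1.71 for Col4a4, 3.11 for Col11a1 and 1.96 for Col15a1, and no member was called. The part of other cells in these values was otherwise not tested. Whether the genotype effect differed between classes was tested in one fit over both classes, an analysis added after the data had been seen. Between RT-like and Sertoli-like cells 0 of 28 members passed (0.475% of all genes), 4 of them having an unadjusted p under 0.05 as 6.19% of all genes did, and between RT-like and myoid-like cells 4 of 26 did (1.09% of all genes).

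**Figure D5:**
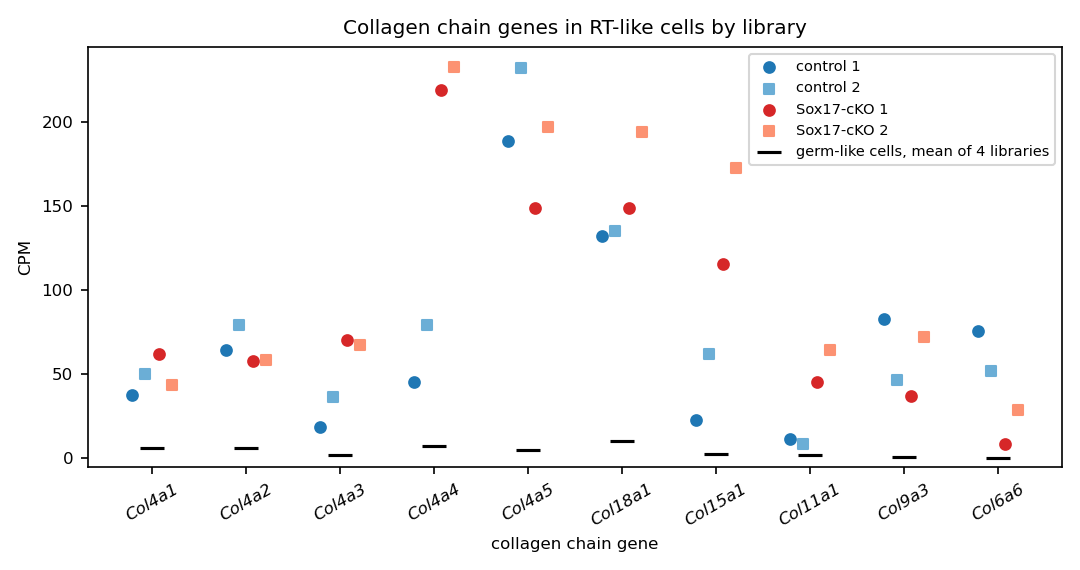
CPM of collagen chain genes in RT-like cells, with 1 point per library and a dash for the mean of germ-like cells. Col4a4, Col4a3, Col11a1 and Col15a1 lie higher in both Sox17-cKO libraries than in both controls and Col6a6 lower, while Col4a5 lies between 149 and 232 CPM in all 4.

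Of the other classes, interstitial-like cells had Col13a1 at 86.7 and 80.2 CPM in controls and 41.1 and 42.6 CPM in Sox17-cKO, a fold of -1.03 ± 0.288 that did not pass (edgeR adjusted p = 1), with ratios of 0.474 and 0.532 within the versions. Sertoli-like cells had Col9a3 at 3.57 and 6.11 CPM against 14.9 and 10.4 CPM (1.26, ratios of 4.18 and 1.70), which did not pass. The fold was 0.82 with cells under 10% mitochondrial UMIs and 0.86 without control replicate 1. The Sertoli-like class included a cluster of 825 cells with a median of 29.6% mitochondrial UMIs. By library it had 259, 28, 428 and 110 cells. Endothelial-like cells had Col18a1 at 431 and 289 CPM against 133 and 118 CPM (-1.49 ± 0.424, edgeR adjusted p = 0.846), on 8 to 26 cells per library. The summed pericyte markers were at 1646 and 483 CPM against 204 and 337 CPM in the same cells, higher in both controls as Col18a1 was, and their part in this difference was not tested. In macrophage-like cells Col3a1 was at 2.29 with ratios of 24.4 and 0.444, and its direction turned to -0.76 without Sox17-cKO replicate 1. It was at 0.57 without the cells of the highest doublet scores and at 1.03 with the replicate block. Fibroblast-like and myoid-like cells, the classes with the most collagen RNA, had a median member at 0.02 and 0.00 between the genotypes, where the median gene was at 0.00 in both.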

How the data were processed

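Single-cell RNA of 4 libraries (10x 3′ kit, given as v3 in the labels and v3.1 in the methods, with 5000 cells targeted each) was read from the gene by barcode matrices of UMI counts that the authors deposited, made with Cell Ranger 6.0.2 or 6.1.2 per the file headers, on GRCm38 (mm10) per the labels. Raw counts were used as deposited. Cells with 1000 to 4500 genes were kept. A cut at 1% mitochondrial UMIs, which the methods give, would leave 212 cells and was left aside. Seurat 5.3.0 integrated the libraries (CCA, 2000 variable features less 40 collagen and pathway genes, 20 components, resolution 0.4, or 0.8 for SV Sertoli-like cells). Clusters were named from marker lists. The members and all lists were chosen with earlier results of these data known.

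UMIs were summed per library and class. edgeR 4.0.16 (TMM, filterByExpr, quasi-likelihood test, two-sided, Benjamini-Hochberg over all genes tested, threshold 0.05) gave the tests, and DESeq2 1.42.0 was an alternative. Pups were pooled within a library, so the libraries are the replicates. P-values of the genotype tests measure the spread between libraries of one genotype. Those of the class tests measure how the class difference within a library varies over the libraries. The genotype fit with the replicate block has little spread of its own left to measure and leans on the spread of all genes. The tests were run on simulated data first. The simulated counts held no shift shared by libraries of one replicate number, so that run cannot show how the tests behave under such shifts. Members at 20 CPM or more in a class were described with their values by library where they were highest and by means elsewhere. Up to 3 genes per pathway list and comparison, those with the smallest adjusted p, could be named. One UMI was worth 1.50 to 4.14 CPM in RT-like and 5.55 to 15.4 CPM in endothelial-like cells. Intervals and floors of counts cover counting error only. Alternatives were another normalization (DESeq2), no filter on low counts, cells under 10% mitochondrial UMIs, cells with the highest doublet scores left out, other clusterings, a replicate block or no library block, and each library left out.

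The labels do not say that equal replicate numbers share a litter or day. Deviations of control and Sox17-cKO replicate 1 from their group means correlated at 0.204 to 0.591 over the 9 classes.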

Additional observations from a re-analysis of the deposited data

Results flagged for a closer look

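The difference in genotype effect between RT-like and myoid-like cells was tested after the data had been seen, in one edgeR fit over both classes. It passed for 4 of 26 members, against 1.09% of all genes (114 of 10476). Col4a4 had a genotype effect 1.73 higher in RT-like than in myoid-like cells on the log2 scale (adjusted p = 2.0e-06), where myoid-like cells were at 3106, 3227, 3190 and 3317 CPM and RT-like cells at 45.4, 79.6, 219 and 233 CPM. For Col11a1 the difference was 2.56 (edgeR adjusted p = 0.00187) and for Col15a1 1.30 (edgeR adjusted p = 0.00877). For Col6a4 it was -3.59 (edgeR adjusted p = 0.00243), and its RT-like values of 7.56, 38.1, 0 and 3.01 CPM rest on few UMIs, with control replicate 2 the highest. Between RT-like and Sertoli-like cells 0 of 28 members passed (0.475% of all genes, 60 of 12624), with Col4a4 at 1.19 (edgeR adjusted p = 0.0558).

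Clusters that carried no name also held collagen RNA above the 0.0257% of germ-like cells. Cluster 17, with 178 cells led by the cycling genes Lockd, Pclaf and Mxd3, gave 3.43% of its UMIs to collagen chains (3.90, 3.62, 2.84 and 3.37% by library). Cluster 7, with 1366 cells and a median of 35.0% mitochondrial UMIs, gave 0.0475%.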

How the results depend on the processing

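In RT-like cells the genotype comparison called 0 members, but 4 with no filter on low counts (0.643% of all genes), 5 with the replicate block (4.04%) and 0 to 3 with one library left out (3 without Sox17-cKO replicate 1, 1.25%, and 2 without Sox17-cKO replicate 2, 1.17%). Over 13 alternatives the fold of Col4a4 stayed between 1.498 and 2.28 and passed in 4 of them, 2 of which left 1 Sox17-cKO library that is assumed to vary as the controls did. The fold ranged from 0.90 to 1.81 for Col4a3 (0 passed), 2.17 to 3.11 for Col11a1 (3), 1.23 to 2.65 for Col15a1 (3) and -2.87 to -1.14 for Col6a6 (1). The replicate block changed no other count of members. In Leydig-like cells leaving out a library gave 0 to 1 members (1 without Sox17-cKO replicate 2, against 0.0873% of all genes), and in macrophage-like cells 0 to 3 (3 without Sox17-cKO replicate 2, 0.429%), with 1 when low counts were not filtered (0.0596%). Col3a1 in macrophage-like cells ranged from -0.76 without Sox17-cKO replicate 1, where it turned, to 3.6 without control replicate 2. Of the named genotype folds under alternatives, 100 kept direction and side of the threshold, 13 came to pass it and 1 turned. The 100, and the 13 alternatives in RT-like cells, include refits of the same cells, which could not differ. In RT-like cells resolution 0.8 and collagen and pathway genes kept in the clustering returned the main fold (1.7582 for Col4a4). In endothelial-like cells both of these and no integration did so (-1.4876 for Col18a1).

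SV Sertoli-like against other Sertoli-like cells called 2 members (19.1% of all genes), but 1 with DESeq2 (12.1%), 1 with no library block (9.37%), 0 with cells under 10% mitochondrial UMIs (11.2%), 10 with collagen and pathway genes kept in the clustering, which formed another set of cells (29.3%), and 1 to 2 with one library left out (1 without control replicate 1, Sox17-cKO replicate 1 or Sox17-cKO replicate 2, 12.4 to 16% of all genes). With those genes kept, the collagen share of SV Sertoli-like cells was 0.0822%. With no integration no SV Sertoli-like cluster formed, so that alternative was not run. Myoid-like against interstitial-like cells called 23 (30.4%), but 15 with DESeq2 (16.4%) and 12 with no library block (12.2%). Of the class folds under alternatives, 1865 kept direction and call and 81 lost the call. Of the levels, 298 moved by less than the spread between libraries and 1 by more. Leaving out a library cannot move a mean by as much as that spread. Those settings are in the count but could not have come out otherwise. The causes of the changes above were not tested. Depth is lowest in endothelial-like and SV Sertoli-like cells and in control replicate 1 of Leydig-like cells, where 1 UMI is worth 8.05 CPM.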

Other observations

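Of the folding genes, Serpinh1 followed the order of the collagen share over 3 classes. It averaged 170 CPM in RT-like, 1104 CPM in myoid-like and 1738 CPM in fibroblast-like cells, while the summed collagen chains were at 0.114, 1.40 and 7.42% of UMIs. SV Sertoli-like cells did not follow that order: Serpinh1 was higher there than in other Sertoli-like cells, but the mean collagen share was not (0.0538 against 0.0583%). The order over the remaining classes was not tested. Colgalt1, which adds galactose to collagen hydroxylysines, was higher in Sertoli-like cells, at 324, 315, 310 and 458 CPM, against 154, 193, 170 and 246 CPM in fibroblast-like cells, although the latter held far more collagen RNA. Plod2 was likewise at 195 ± 26.6 CPM (SD, n = 4 libraries) in Sertoli-like and 193 ± 16.3 CPM in fibroblast-like cells, which overlapped. These values were noted after the data had been seen, and fibroblast-like cells were not tested against Sertoli-like or RT-like cells.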
